A study of Mus musculus with 6 samples.

Results

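The 9 genes described here encode transcription factors that mark the dorsal midline and the regions of the developing forebrain. They are Lmx1a, Otx2 and Msx1, factors of the roof plate and choroid plexus, Zic1, Zic2 and Zic4 of the Zic zinc finger family, and Nr2f1, Nr2f2 and Emx2, which pattern the cortex and its neighbours. They were chosen by name with earlier results of these data known, and are 9 of the 18614 genes in the deposited table. All 9 passed the filter on low counts, Lmx1a through the WT libraries alone. Their levels come from bulk RNA sequencing of the SVZ, the subventricular zone beside the lateral ventricle, where neural stem cells persist, in 3 libraries from Zhx2Δ/Δ mice and 3 from Zhx2+/+ mice. The first group is called KO-labelled here and the second WT. The sources used here name no treatment and give neither the strain, age and sex of the mice nor the kind of deletion or any pooling of animals. All 3 titles name ZHX2, but the genotype tag is ZHX3 KO for KO 2 and ZHX4 KO for KO 3. Whether each library is a separate animal was not stated, so p-values measure the spread between libraries, part or all of which could be technical.

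The roof plate is the strip of cells along the dorsal midline of the neural tube that releases BMP and Wnt signals. In the forebrain the same midline gives rise to the choroid plexus epithelium, which secretes cerebrospinal fluid, and to the cortical hem beside it. LIM and homeobox factors such as Lmx1a, Msx1 and Otx2 act in this tissue, and Otx2 is also made by the adult choroid plexus. Zic factors are expressed in the dorsal midline, the septum and the meninges. The orphan nuclear receptors Nr2f1 (COUP-TFI) and Nr2f2 (COUP-TFII) and the homeobox factor Emx2 set regional identity in the cortex, and Nr2f2 also marks venous endothelium and the caudal ganglionic eminence.

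Zhx2, which the deletion targets, was at 67.1, 57.8 and 56.3 CPM in KO 1 to 3, against 39.8, 40.5 and 38.2 CPM in WT 1 to 3, so the transcript level goes against the label (adjusted p = 0.163 in edgeR and 0.00142 in DESeq2, higher in KO-labelled libraries). Which part of the gene was deleted is not stated, and counts are for the whole gene. Directions below are therefore those of the libraries labelled KO. CPM, the counts of a gene relative to the library total, are scaled by edgeR's TMM method. Library totals lay between 17037103 and 17685856 counts. The SVZ factor Dlx2 was detected in every library, at 23.4, 27.8 and 26.1 CPM in KO 1 to 3 and 37.9, 17.8 and 25.9 CPM in WT 1 to 3. Marker genes of neighbouring tissues differed between the libraries. A list of 16 choroid plexus epithelium genes took 0.046%, 0.052% and 0.0319% of the counts in KO 1 to 3, against 2.41%, 1.76% and 0.542% in WT 1 to 3, and 8 striatal neuron genes summed to between 3102 and 4084 CPM in KO-labelled libraries and to 467, 6659 and 1941 CPM in WT 1 to 3. Enpp2 alone made up most of the choroid list in KO-labelled libraries, at 427, 329 and 241 of 473, 519 and 321 CPM in KO 1 to 3. In bulk tissue, fewer cells of a type and less RNA per cell cannot be told apart.

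Lmx1a, Otx2, Msx1 and Nr2f2 had a lower level in every library labelled KO than in every WT library. DESeq2 called these 4, while edgeR, the main test, called none of the 9. The 250 bases before their annotated starts (RefSeq, assembly GRCm38.p6, written 5′ to 3′ on the gene's strand) are shown because these genes were low together, and 2 of the 4 windows of Otx2 are shown because the counts of its transcript models were split differently in the libraries. Capitals mark TAATCC, the core letters bound by OTX factors, and TAATTA, a common homeodomain core, searched on both strands (TAATTA reads the same on both, and TAATCC on the other strand appears as GGATTA).
Otx2 window A, chr14:48667509-48667758, minus strand: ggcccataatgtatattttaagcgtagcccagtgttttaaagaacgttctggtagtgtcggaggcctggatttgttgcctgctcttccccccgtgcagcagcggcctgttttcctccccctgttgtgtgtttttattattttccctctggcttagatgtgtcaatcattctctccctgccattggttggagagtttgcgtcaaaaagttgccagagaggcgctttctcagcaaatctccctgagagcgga
Otx2 window B, chr14:48665110-48665359, minus strand: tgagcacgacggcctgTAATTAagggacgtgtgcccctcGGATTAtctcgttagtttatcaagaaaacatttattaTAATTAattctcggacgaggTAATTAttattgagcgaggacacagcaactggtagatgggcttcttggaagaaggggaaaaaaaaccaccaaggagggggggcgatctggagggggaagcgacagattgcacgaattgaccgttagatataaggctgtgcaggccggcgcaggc
Msx1, chr5:37824586-37824835, minus strand: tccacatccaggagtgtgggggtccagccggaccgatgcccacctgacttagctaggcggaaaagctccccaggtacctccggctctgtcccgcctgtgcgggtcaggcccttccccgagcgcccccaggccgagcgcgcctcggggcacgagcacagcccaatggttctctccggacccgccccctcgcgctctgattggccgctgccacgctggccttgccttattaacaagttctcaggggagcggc
Lmx1a, chr1:167689308-167689557, plus strand: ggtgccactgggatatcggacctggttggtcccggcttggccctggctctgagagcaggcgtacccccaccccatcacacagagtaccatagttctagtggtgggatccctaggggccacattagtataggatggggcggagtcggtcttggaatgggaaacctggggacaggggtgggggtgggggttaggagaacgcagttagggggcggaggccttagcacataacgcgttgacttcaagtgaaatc
Nr2f2, chr7:70366747-70366996, minus strand: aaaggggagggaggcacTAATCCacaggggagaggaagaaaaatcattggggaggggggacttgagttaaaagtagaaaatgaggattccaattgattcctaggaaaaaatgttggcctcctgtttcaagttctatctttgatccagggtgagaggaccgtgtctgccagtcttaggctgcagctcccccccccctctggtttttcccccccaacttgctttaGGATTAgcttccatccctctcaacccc
Otx2 window B held 1 TAATCC and 3 TAATTA, and that of Nr2f2 held 2 TAATCC. Neither was found in Otx2 window A or in the windows of Msx1 and Lmx1a. The Nr2f2 window is not that of its transcript model with the most counts, which GENCODE places at a start of 70360593. No window before that start was searched. Of the Otx2 windows not printed, the most upstream of all 4 (chr14:48667645-48667894) held 1 TAATTA, and the most downstream held neither. Of 32851 windows of this length before annotated starts, 6.25% held TAATCC and 4.84% held TAATTA. The core letters bound by nuclear receptors such as Nr2f1 and Nr2f2, AGGTCA, were in 14% of those windows and in none of the 12 windows that 8 of the 9 factors have in the table. The GC content of the Msx1 window was 68.0% and that of Otx2 window B 48.4%, against a median of 52.4% over all windows.

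Among the roof plate and choroid factors, Lmx1a, a LIM homeobox gene needed for roof plate formation in mice, was close to absent from the libraries labelled KO. It had 0, 6 and 0 estimated counts in KO 1 to 3 and 117, 85 and 25 in WT 1 to 3, which is 0, 0.346 and 0 CPM against 6.33, 5.1 and 1.45 CPM. Only KO 2 held any Lmx1a count among the libraries labelled KO, and WT 3 was the lowest WT library. The mean CPM was 37.3-fold lower in KO-labelled libraries, on 6 counts against 227. The log2 fold change was -5.12 (SE 1.08), with an adjusted p of 0.219 in edgeR and 7.4e-05 in DESeq2. DESeq2 kept the call in 4 of 6 fits with a library left out and lost it without WT 2 or WT 3 (highest adjusted p 0.393).

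Otx2, a homeobox gene required for the choroid plexus in mice, was at 4.83, 12 and 8.98 CPM in KO 1 to 3 and at 84.8, 60.9 and 25.6 CPM in WT 1 to 3. The groups did not overlap, and the highest library labelled KO, KO 2, reached less than WT 3, the lowest WT library. The log2 fold change was -2.73 (SE 0.52), a 6.64-fold lower mean, with an adjusted p of 0.192 in edgeR and 7.54e-07 in DESeq2.

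Msx1, a homeobox target of BMP signalling, was at 3, 3.92 and 2.7 CPM in KO 1 to 3 and at 43.8, 37.1 and 12.9 CPM in WT 1 to 3. Again every library labelled KO lay below WT 3. Its log2 fold change was -3.28 (SE 0.48), a 9.75-fold lower mean, with an adjusted p of 0.151 in edgeR and 5.94e-11 in DESeq2. By unadjusted p in edgeR it ranked 34 of 15126 genes, Otx2 ranked 120 and Lmx1a 179.

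**Figure D1:**
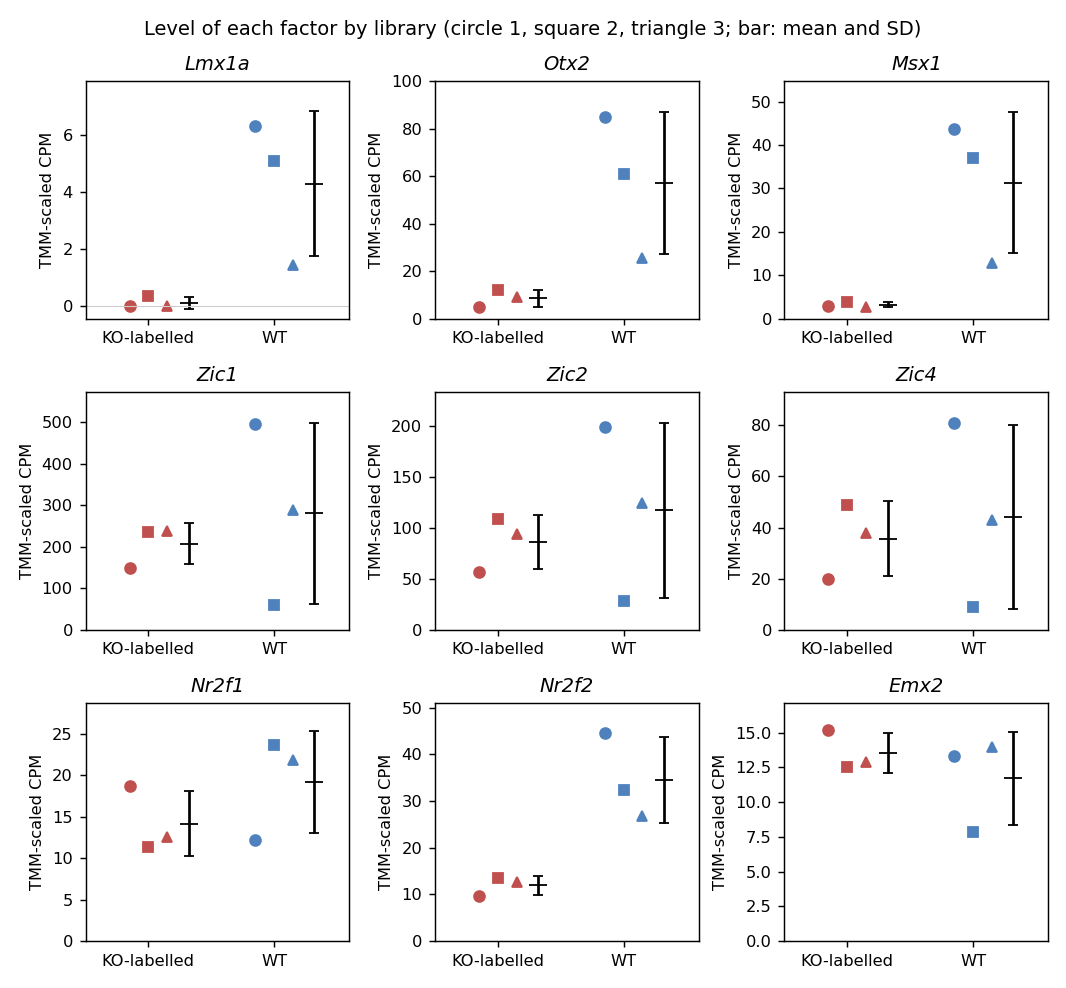
TMM-scaled CPM (vertical axes, linear) of the 9 factors in the 3 KO-labelled libraries (red, left) and the 3 WT libraries (blue, right); markers give the library number, and bars the mean and SD. For Lmx1a, Otx2, Msx1 and Nr2f2 every red point lies below every blue point, while for the other factors the groups overlap.

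In edgeR 0 of 15126 genes passed (0%; lowest adjusted p 0.144), and so 0 of the 9 factors. DESeq2 called 305 lower genes, 2.02% of those tested, and 6 higher ones, 0.0397%. It called 4 of the 9 factors lower, Lmx1a, Otx2, Msx1 and Nr2f2, of which Lmx1a could pass the filter only by being high in WT. Since the factors were chosen with earlier results of these data known, the share called among them is no independent result. On simulated counts a larger share of DESeq2's calls was false than its threshold allows, and larger than that of edgeR or limma-voom. Those counts were drawn with changes in both directions, whereas nearly all calls here were lower, so that share need not hold for these calls. The 4 called factors had an unadjusted p under 0.05 in edgeR, where 6.39% of genes were lower at that level and 2.68% higher. They were also the 4 factors whose groups did not overlap, which was so for 8.74% of genes with the libraries labelled KO below and 8% with them above. Limma-voom called 0 genes, with an adjusted p of 0.35 for each of the 4. In two-sided exact permutation tests each of the 4 had p = 0.1, below which 3 libraries against 3 cannot go. Without WT 3, the WT library lowest in choroid plexus genes, edgeR called 137 genes, all lower (0.895% of 15301), and among them Otx2 (adjusted p = 0.0429), Msx1 (0.00391) and Nr2f2 (0.0347).

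Choroid plexus genes were low in the same libraries as these factors. All 16 genes of the list, which was also chosen with earlier results of these data known, had groups that did not overlap. Their median log2 fold change was -5.76, against 0.02 over all genes tested. DESeq2 called 16 of them lower, and edgeR called 0, with 16 lower at an unadjusted p under 0.05. The smallest p were those of Slc4a5, F5 and Kcne2, which encode a bicarbonate transporter, a clotting factor and a channel subunit. They averaged 0.426 ± 0.293, 1.74 ± 1.11 and 0.426 ± 0.281 CPM in KO-labelled libraries, against 81.7 ± 47.4, 140 ± 72.9 and 51.9 ± 29.8 CPM in WT libraries (SD, n = 3). Slc4a5, with 3, 13 and 6 counts in KO 1 to 3, and Kcne2, with 4, 13 and 5, passed the filter only by being high in WT. So did other genes of the list, among them Tmem72 and Steap1. Ttr, which encodes the transthyretin secreted by this epithelium, had 221, 1988 and 232 counts in KO 1 to 3 and 283352, 177765 and 54011 in WT 1 to 3. The library order was shared in WT, where WT 1 was highest and WT 3 lowest for Ttr, Lmx1a, Otx2, Msx1 and Nr2f2 alike. The part of this content in the lower factor levels was not tested.

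Otx2, Msx1 and Nr2f2 were not lower in proportion to Ttr. Otx2 had 371, 105 and 659 counts per 1000 Ttr counts in KO 1 to 3, against 5.53, 5.7 and 8.18 in WT 1 to 3. For Msx1 the ratio was 231, 34.2 and 198 in KO-labelled libraries and 2.86, 3.48 and 4.13 in WT libraries. Within WT the ratios of Otx2 and Msx1 varied less than Ttr itself, and every library labelled KO had higher ratios than every WT library. The same order held for Nr2f2, with 737, 118 and 925 counts per 1000 Ttr counts in KO 1 to 3 and 2.91, 3.03 and 8.53 in WT 1 to 3. For Lmx1a only KO 2 lay above WT, with 0, 3.03 and 0 counts per 1000 Ttr counts in KO 1 to 3 and 0.414, 0.478 and 0.466 in WT 1 to 3. KO 1 and KO 3 held 221 and 232 Ttr counts, where a ratio as in WT would also give about 0 Lmx1a counts. Their zeros therefore do not show a ratio below that of WT. Against the sum of the 16 choroid genes the contrast was smaller, since Otx2 had 10.2, 23.1 and 28 counts per 1000 list counts in KO 1 to 3 and 3.67, 3.38 and 4.75 in WT 1 to 3. For Nr2f2 these were 20.3, 25.9 and 39.3 in KO 1 to 3 and 1.93, 1.79 and 4.95 in WT 1 to 3. In KO-labelled libraries that sum was mostly Enpp2 (427, 329 and 241 CPM in KO 1 to 3), so this smaller contrast rests largely on that gene. The ratio of Msx1 to Otx2 overlapped between the groups, with 0.622, 0.327 and 0.301 Msx1 counts per Otx2 count in KO 1 to 3 and 0.516, 0.609 and 0.505 in WT 1 to 3. The ratio of Lmx1a to Otx2 did not overlap, at 0, 0.029 and 0 in KO 1 to 3 and 0.0749, 0.0838 and 0.0569 in WT 1 to 3.

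Otx2 counts were split over 9 transcript models, 3 of them curated. The model with the most counts in WT has the most upstream of the curated starts (chromosome 14, position 48667515 in GENCODE's annotation of the same build), beside which window A ends, and had 34.0, 50.4 and 103 counts in KO 1 to 3 against 643, 350 and 240 in WT 1 to 3. The model of the middle start (48665106), beside which window B ends, had 0 counts in each library labelled KO, against 341, 285 and 53.6 in WT 1 to 3, or 21.8%, 28.1% and 12.1% of the WT counts of the gene. The model of the downstream start (48662872) had 32.4 counts in KO 2 and 12.7 in WT 2, and 0.24 or fewer in the other libraries. These are estimates for overlapping models, and at the total Otx2 counts of the libraries labelled KO, between 82 and 208, a share is known only coarsely. The predicted models were given no start here, and a predicted model took 47.5% of the Otx2 counts in KO 2. The 0 counts of the middle model therefore do not show that its start was unused. No test was made of the split.

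**Figure D2:**
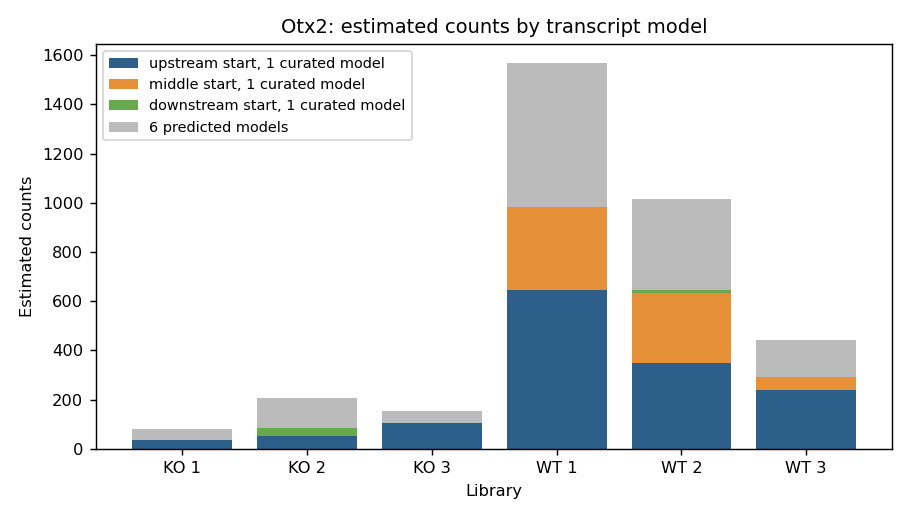
Estimated Otx2 counts (vertical axis, linear) by library, stacked by transcript model; colours mark the 3 curated models by their start, and grey the 6 predicted models. The orange part, from the curated model of the middle start, holds 341, 285 and 53.6 counts in WT 1 to 3 and 0 in KO 1 to 3. The predicted models were given no start, so the grey part could include reads from any of the starts.

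Nr2f2, a nuclear receptor gene, was at 9.6, 13.5 and 12.6 CPM in KO 1 to 3 and at 44.6, 32.3 and 26.7 CPM in WT 1 to 3. The highest level was 1.4-fold the lowest in KO-labelled libraries and 1.67-fold in WT libraries, and the groups did not overlap. The log2 fold change was -1.54 (SE 0.23), a 2.9-fold lower mean, with an adjusted p of 0.144 in edgeR and 9.13e-07 in DESeq2, and it ranked 29 by unadjusted p in edgeR. DESeq2 called Nr2f2, Otx2 and Msx1 in each of the 6 fits with a library left out, at adjusted p of at most 0.00027, 0.0252 and 4.73e-06. The model that GENCODE places at a start of 70360593 had 106, 201 and 128 counts in KO 1 to 3 and 580, 388 and 313 in WT 1 to 3. The model at 70366735, beside which the printed window ends, had 15.3, 27.5 and 32.6 counts against 145, 123 and 117. Both models were lower in all 3 libraries labelled KO.

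Its paralogue Nr2f1 did not share this pattern. Nr2f1 was at 18.7, 11.3 and 12.5 CPM in KO 1 to 3 and at 12.2, 23.6 and 21.8 CPM in WT 1 to 3. The groups overlapped, because WT 1 was low and KO 1 high. The change, -0.44 on the log2 scale (SE 0.30), had an adjusted p of 0.706 in edgeR and 0.845 in DESeq2. There were 1.95, 0.839 and 0.992 Nr2f1 counts per Nr2f2 count in KO 1 to 3, against 0.274, 0.731 and 0.817 in WT 1 to 3.

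Emx2, a homeobox gene that patterns the cortex, had the smallest change of the 9. It was at 15.2, 12.5 and 12.9 CPM in KO 1 to 3 and at 13.3, 7.86 and 14 CPM in WT 1 to 3, so that only WT 2 stood below the rest. The log2 fold change was 0.21 (SE 0.23; adjusted p = 0.824 in edgeR), and -0.03 without WT 2.

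The Zic genes varied more within WT than between the groups. Zic1, a zinc finger gene of the dorsal neural tube, was at 150, 236 and 238 CPM in KO 1 to 3 and at 495, 58.7 and 288 CPM in WT 1 to 3. WT 1 was the highest and WT 2 the lowest of the 6 libraries, with the libraries labelled KO between them. The WT range was 8.43-fold, against 1.59-fold among the libraries labelled KO, and the adjusted p in edgeR was 0.871 for a log2 fold change of -0.43 (SE 0.67).

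Zic2, in which mutations disturb midline development of the forebrain in mice and humans, was at 56.1, 108 and 93.4 CPM in KO 1 to 3 and at 199, 27.8 and 124 CPM in WT 1 to 3, a log2 fold change of -0.45 (SE 0.65; adjusted p = 0.86 in edgeR). Zic4, the neighbour of Zic1, was at 19.9, 48.9 and 37.9 CPM in KO 1 to 3 and at 80.9, 8.88 and 42.9 CPM in WT 1 to 3, a log2 fold change of -0.32 (SE 0.73; adjusted p = 0.92). Both showed the order of Zic1, with WT 1 highest and WT 2 lowest. None of the 3 Zic factors was called by DESeq2 with all libraries or with any single library left out. Without WT 1 the fold changes in edgeR were positive, at 0.26 for Zic1, 0.17 for Zic2 and 0.46 for Zic4, so these data give no direction for these 3 genes.

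The ratios between the Zic genes varied less than their levels. There were 0.375, 0.457 and 0.393 Zic2 counts per Zic1 count in KO 1 to 3, and 0.402, 0.475 and 0.431 in WT 1 to 3. For Zic4 the ratio to Zic1 was 0.133, 0.208 and 0.159 in KO-labelled libraries and 0.163, 0.151 and 0.149 in WT libraries. Both ratios overlapped between the groups, in libraries whose Zic1 level differed 8.43-fold. Zic5, another paralogue, had 0.0871, 0.0749 and 0.0805 counts per Zic2 count in KO 1 to 3 and 0.111, 0.11 and 0.0946 in WT 1 to 3, without overlap. Among the WT libraries, striatal neuron genes ran opposite to the Zic order, at their lowest in WT 1 and their highest in WT 2. Their mean log2 CPM was 8.07, 8.42 and 8.44 in KO 1 to 3 and 4.92, 9.12 and 7.45 in WT 1 to 3. In KO-labelled libraries the orders were not opposite, since the striatal mean, Zic1, Zic2 and Zic4 were all lowest in KO 1. The part of the tissue sampled in the Zic levels was not tested.

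**Figure D3:**
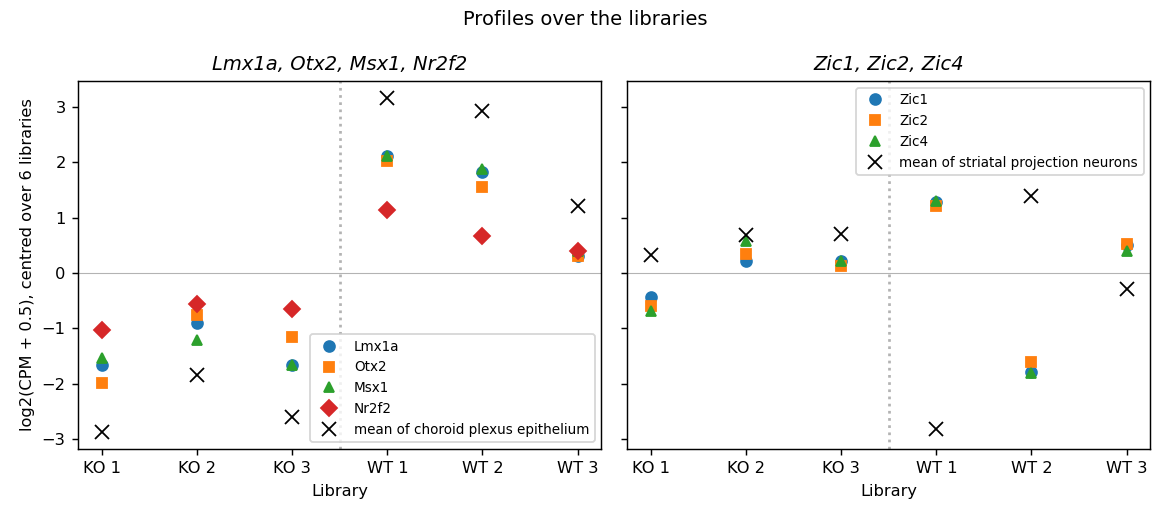
Level of each factor in the 6 libraries as log2(CPM + 0.5) centred on its mean (vertical axis), KO-labelled left of the dotted line and WT right; crosses give the mean of the choroid plexus list (left panel) and of the striatal list (right panel). Lmx1a, Otx2, Msx1 and Nr2f2 lie below 0 in KO 1 to 3 and above it in WT 1 to 3, whereas the Zic genes are highest in WT 1 and lowest in WT 2.

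Positions in mm10 set some of the factors side by side. Zic1 (chromosome 9, 91358058 to 91365768, minus strand) and Zic4 (chromosome 9, 91365631 to 91389351, plus strand) face away from each other and overlap by 138 bases at their 5′ ends. Zic2 (chromosome 14, 122475384 to 122480328, plus strand) lies 9725 bases from Zic5 (chromosome 14, 122459160 to 122465658, minus strand), a paralogue, in the same head-to-head arrangement. Zic5 was at 4.89, 8.06 and 7.52 CPM in KO 1 to 3 and at 22.1, 3.06 and 11.8 CPM in WT 1 to 3, again highest in WT 1 and lowest in WT 2. Its log2 fold change, -0.85 (adjusted p = 0.732 in edgeR), lay between -1.33 and -0.12 with single libraries left out.

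The other factors lie apart. Otx2 is on chromosome 14 (48656781 to 48667644, minus strand), Msx1 on chromosome 5 (37820491 to 37824585, minus strand), Lmx1a on chromosome 1 (167688230 to 167848741, plus strand), Nr2f2 on chromosome 7 (70351946 to 70366746, minus strand), Nr2f1 on chromosome 13 (78188971 to 78198873, minus strand) and Emx2 on chromosome 19 (59458690 to 59465357, plus strand). Annotated non-coding genes overlap Msx1 (Msx1os, 2188 bases), Nr2f1 (A830082K12Rik, 857 bases) and Nr2f2 (B130024G19Rik, 1364 bases). Since the strand setting is not given, reads of Msx1, Nr2f1, Nr2f2, Zic1 and Zic4 cannot be told apart from those of the overlapping gene in the shared bases.

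The levels of different genes were compared per length, as FPKM, which scales fragments to transcript length and library total, summed over a gene's transcripts. In KO-labelled libraries the order was Zic1 (43.6 ± 11), Zic2 (28.6 ± 9.23), Zic4 (8.54 ± 3.57), Nr2f1 (6.24 ± 1.63), Emx2 (5.25 ± 0.378), Otx2 (3.59 ± 1.55), Nr2f2 (2.81 ± 0.473), Msx1 (1.65 ± 0.34) and Lmx1a (0.0333 ± 0.0577 FPKM; SD, n = 3). In WT libraries it was Zic1 (61.5 ± 48.8), Zic2 (40.4 ± 30.4), Otx2 (23.8 ± 12.8), Msx1 (16.5 ± 8.77), Zic4 (10.9 ± 9.09), Nr2f1 (8.38 ± 2.45), Nr2f2 (8.29 ± 2.48), Emx2 (4.78 ± 1.24) and Lmx1a (1.3 ± 0.778 FPKM). Otx2 was in place 6 and Msx1 in place 8 in KO-labelled libraries, against places 3 and 4 in WT. The libraries of neighbours in an order overlapped, except, in KO-labelled libraries, Zic2 with Zic4, Nr2f2 with Msx1 and Msx1 with Lmx1a, and, in WT libraries, Nr2f2 with Emx2 and Emx2 with Lmx1a. Such overlap across libraries does not judge the order within a library. In every library Zic1 was above Zic2, and Otx2 above Msx1.

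Likeness of profile was measured as the mean absolute difference in centred log2(CPM + 0.5) over the 6 libraries, among genes with a mean of at least 1 CPM. Lmx1a and Msx1 were each among the other's 3 nearest genes (0.10), and both had as nearest Slc2a12, a glucose transporter gene (0.09 from Lmx1a and 0.08 from Msx1), and close by Rbm47, an RNA-binding protein gene (0.10 from each). Since Lmx1a is at 0 in KO 1 and KO 3, its values there are set by the added 0.5, and its distances depend on that offset. The genes nearest to Otx2 were Clic6, on the choroid plexus list (0.14), Ace, the angiotensin-converting enzyme gene (0.16), and Baiap2l1 (0.17). Those of Nr2f2 were Map3k15 (0.10), Smim5 (0.11) and the acetyl-CoA carboxylase gene Acacb (0.13). The median distance of all such genes was 1.42 from Lmx1a, 1.31 from Otx2, 1.48 from Msx1 and 0.76 from Nr2f2.

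Zic1 was nearest to Cacng5, which encodes an AMPA receptor auxiliary subunit (0.10), then to Zic2 (0.11). Zic2 was nearest to the homeobox gene Bsx (0.10) and to Zic1 (0.11), and Zic4 to the collagen gene Col23a1, to Cacng5 and to the protein kinase gene Prkcd (0.08 each). The nearest genes to Nr2f1 were the transcriptional repressor gene Bcl6 (0.11), the follistatin gene Fst (0.11) and Arap2 (0.12), and those to Emx2 were Opcml (0.04), the semaphorin gene Sema4a (0.04) and Tcea2 (0.05). For Emx2 and Nr2f1 such distances say less, since the median gene lay at 0.27 and 0.42, against 0.76, 0.75 and 0.84 for Zic1, Zic2 and Zic4.

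Of 8 paralogues of the factors, 6 were tested, and 0 passed in edgeR or DESeq2 in either direction (1 lower at an unadjusted p under 0.05 in edgeR). Their median log2 fold change was -0.51, and 0.00 without WT 1. Msx2, the paralogue of Msx1, was the only one whose groups did not overlap. Over all genes this was so for 8.74% with the libraries labelled KO below and 8% with them above. Msx2 was at 0.412, 0.576 and 0.235 CPM in KO 1 to 3 and 1.3, 1.26 and 1.1 CPM in WT 1 to 3. Its log2 fold change was -1.56 (adjusted p = 0.299 in edgeR). With 7, 10 and 4 counts in KO 1 to 3, it passed the filter through the WT libraries alone. Otx1, the paralogue of Otx2, was at 6.13, 2.88 and 1.35 CPM in KO 1 to 3 and 5.68, 4.92 and 4.52 CPM in WT 1 to 3, with overlapping groups. Lmx1b and Msx3 did not pass the filter, with at most 0.232 and 0.173 CPM in any library.

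Of 12 roof plate and cortical hem signal genes, 10 were tested and 0 passed in edgeR or DESeq2 in either direction (2 lower and 1 higher at an unadjusted p under 0.05 in edgeR). The median log2 fold change, -0.16, was 0.02 without WT 1. Bmp5, a BMP ligand gene, was at 1.65, 1.44 and 1.88 CPM in KO 1 to 3 and 3.63, 3.48 and 2.55 CPM in WT 1 to 3 (log2 fold change -0.96, adjusted p = 0.331 in edgeR). Rspo3, which encodes an enhancer of Wnt signalling, lay the other way, at 8.72, 6.68 and 5.46 CPM against 3.09, 2.94 and 4.99 CPM (log2 fold change 0.92, adjusted p = 0.416). Neither gene's groups overlapped, nor did those of Wnt2b, a Wnt ligand gene picked out after its values were seen, at 4.06, 4.15 and 3.52 CPM against 4.55, 5.28 and 5.69 CPM. Bmp6 was at 19.7, 33.1 and 21 CPM in KO 1 to 3 and at 53.6, 46.6 and 28.1 CPM in WT 1 to 3, where WT 3 lay below KO 2.

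Of 18 other forebrain regional factors, all tested, 0 passed in edgeR or DESeq2 in either direction (2 lower at an unadjusted p under 0.05 in edgeR), with 10 negative and 8 positive log2 fold changes. Their median, -0.06, was 0.19 without WT 1. Eomes, a factor of cortical intermediate progenitors, was at 0.295, 0.576 and 0.998 CPM in KO 1 to 3 and at 38, 0.18 and 15.8 CPM in WT 1 to 3, high in WT 1 and WT 3 and lowest of all in WT 2. Its log2 fold change was -4.84 (adjusted p = 0.425 in edgeR), with overlapping groups. Gsx1, a homeobox gene of the ganglionic eminences, was at 0.825, 0.691 and 0.998 CPM in KO 1 to 3 and at 1.35, 1.5 and 1.33 CPM in WT 1 to 3 (log2 fold change -0.73, adjusted p = 0.531 in edgeR). Lhx6, a factor of medial ganglionic eminence interneurons, was at 21, 52.6 and 73.9 CPM against 34.7, 27.9 and 32.2 CPM, with overlapping groups.

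**Figure D4:**
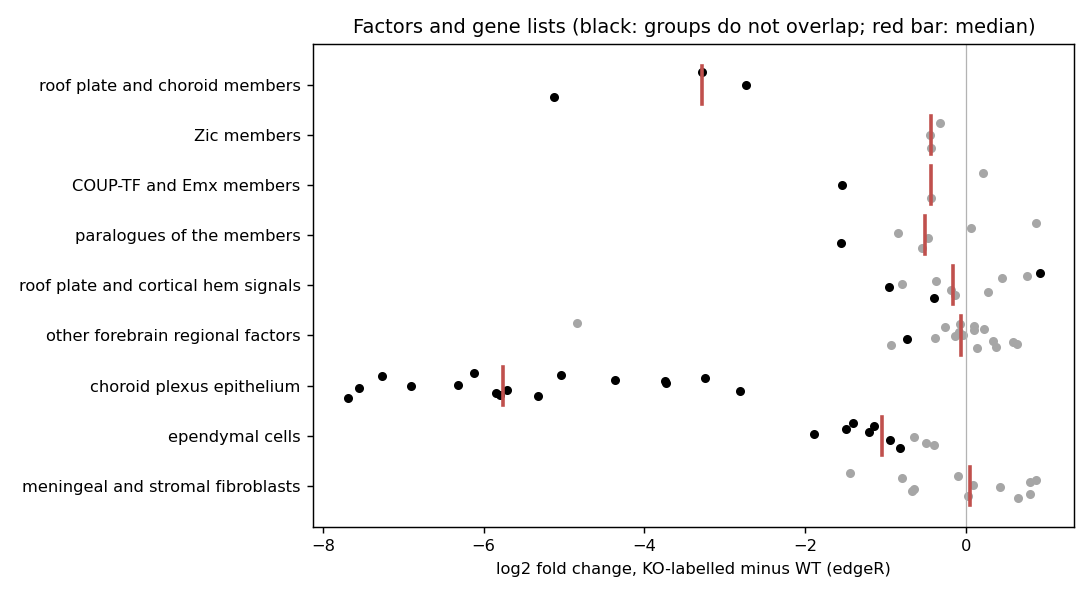
Log2 fold change of each tested gene, KO-labelled minus WT (horizontal axis, edgeR), for the 3 groups of factors and 6 gene lists; black points are genes whose groups do not overlap, and red bars are medians. Lmx1a, Msx1 and Otx2, at -5.12, -3.28 and -2.73, lie below all tested paralogues and signal genes. Among the other forebrain regional factors, Eomes, at -4.84 with overlapping groups, lies below Msx1 and Otx2. Lmx1a and Msx1 fall within the range of the choroid plexus genes (-7.69 to -2.81), and Otx2 beside its upper end.

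Markers of neighbouring tissues were set beside the factors. Of 10 ependymal genes, all had a negative log2 fold change (median -1.04), 0 passed in edgeR (7 lower at an unadjusted p under 0.05) and DESeq2 called 6 lower. Their sum was 135, 118 and 92 CPM in KO 1 to 3 and 278, 193 and 189 CPM in WT 1 to 3. Cfap44, Rsph4a and Hydin, which serve motile cilia, averaged 9.84 ± 1.15, 10.2 ± 1.15 and 7.15 ± 1.18 CPM in KO-labelled libraries and 27.6 ± 5.37, 22.4 ± 4.32 and 16.4 ± 3.14 CPM in WT libraries (SD, n = 3). The meningeal and stromal list, which covers another tissue that expresses Zic genes, had a median of 0.05 over 12 genes, and 0 passed in edgeR or DESeq2 (1 lower at an unadjusted p under 0.05 in edgeR). Without KO 2 the median was -0.45. Its sum was 216, 599 and 269 CPM in KO 1 to 3 and 1004, 728 and 428 CPM in WT 1 to 3, of which the growth factor gene Igf2 gave 126, 353 and 159 CPM and 834, 619 and 277 CPM. Their part in the factor levels was not tested.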

How the data were processed

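The comparison set 3 KO-labelled libraries of bulk SVZ RNA against 3 WT libraries, with groups taken from the sample titles. The deposited table holds estimated counts and FPKM (per transcript length and library size, as the deposited values show) for 61481 RefSeq transcripts. Per the submitters' processing notes, reads were placed on mm10, and the tools included limma 3.40.6. No aligner, quantifier, annotation release or strand setting was found: not given in the sources used here.

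The transcripts' estimated counts were added up by NCBI gene number (18614 genes), rounded, and 18489 received a symbol through RefSeq (GRCm38.p6). The 125 genes left without a symbol took 0.104% to 0.14% of all counts in a library. FPKM were summed over the transcripts of a gene. Libraries held between 17037103 and 17685856 counts, so the limit that a count of 0 allows, 3 counts, was at 0.162 to 0.18 TMM-scaled CPM, with respect to counting error alone. No pair of libraries within a group agreed within sampling noise (chi-square per degree of freedom between 21.7 and 95.4).

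The test was edgeR's two-sided quasi-likelihood F test (version 4.0.16, R 4.3.3) with the group as sole term, TMM scaling, a trended and robust fit and the filterByExpr minimum of 10 counts, with Benjamini-Hochberg adjustment over the 15126 genes kept and a threshold of 0.05. Tested on simulated counts, all 3 tools returned the fold changes put in, and false calls exceeded the nominal share, most for DESeq2. These counts were drawn for each gene independently, with changes in both directions. Alternatives were DESeq2 1.42.0, limma-voom (limma 3.58.1), DESeq2 size factors or upper quartiles in place of TMM, no filter, no robust option, a replicate block, KO 1 alone, and each library left out. CPM are TMM-scaled, errors are SD over 3 libraries, and SEs of log2 fold changes follow from the F statistics. The log2(CPM + 0.5) scale was used for profiles.

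The 9 factors and the 16 gene lists, the 3 groups of factors among them, were chosen with earlier results of these data known. Named beside the factors are the up to 3 genes with the smallest p of each other list, the 3 genes nearest to each factor's profile, and Zhx2; Ttr and a few other list members were named after their values were seen. A few genes that this rule picks are not reported here.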

Additional observations from a re-analysis of the deposited data

How the results depend on the processing

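Lmx1a, Otx2, Msx1 and Nr2f2 kept a negative log2 fold change under all 14 alternatives, at adjusted p between 5.94e-11 (Msx1, DESeq2) and 0.827 (each of the 4 with KO 1 alone). DESeq2 called 311 genes and 4 factors where edgeR called 0 and 0. With single libraries left out, edgeR called between 0 and 137 genes and between 0 and 3 factors, both highest without WT 3, and the median log2 fold change of the 9 factors, -0.45 with all libraries, lay between -0.93 and -0.42. With KO 1 alone against WT, where the lone library is assumed to vary like the WT libraries, it was -1.15. Signs turned for Zic1 (0.01 with limma-voom), for Zic4 (0.07 with limma-voom, 0.02 with the replicate block) and with single libraries left out, where Zic1 lay between -0.93 and 0.26, Zic2 between -0.93 and 0.17, Zic4 between -0.81 and 0.46 (highest without WT 1 for all 3) and Emx2 between -0.03 (without WT 2) and 0.35. The cause was not tested. The replicate numbers were not taken to pair libraries, since deviations of same-numbered libraries correlated between -0.17 and -0.06, and no KO-labelled library correlated best with the WT library of its own number; with the replicate block 0 genes and 0 factors were called and the median of the factors was -0.42. Library totals in place of TMM moved no level by more than the SD. The Lmx1a fold change rests on 6 counts in KO 2: without that library it was -9.22 in edgeR, a value that depends on the prior count and is no bound.

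List medians under these settings, and DESeq2 with single libraries left out, were chosen after seeing the data. With KO 1 alone the medians of the regional, choroid plexus and meningeal lists were -0.44, -6.52 and -0.49. Those of the cholinergic neuron and endothelial lists turned negative, to -0.54 and -0.10. Without any filter the signal gene median was 0.07. Depth limits Lmx1a most, at 0 counts in KO 1 and KO 3, where 3 counts would equal at most 0.177 CPM.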

Other observations

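The remaining lists hold other cell types that the dissection could contain, and 0 of their genes passed in edgeR. Of 6 thalamus and habenula genes 4 were tested. Their median change was -1.09 on the log2 scale, 2 were lower at an unadjusted p under 0.05 in edgeR, and DESeq2 called 2 lower. Lhx9, a LIM homeobox gene of the diencephalon, averaged 0.646 ± 0.469 CPM in KO-labelled libraries and 4.57 ± 0.917 CPM in WT libraries, and Slc17a6, the vesicular glutamate transporter gene of subcortical neurons, 14.5 ± 8.42 and 42.4 ± 13.8 CPM (SD, n = 3). In both genes every library labelled KO lay below every WT library, and DESeq2 kept the call in 5 of 6 fits with a library left out for Lhx9 and in 2 of 6 for Slc17a6. Tcf7l2 averaged 13.3 ± 3.88 and 20.6 ± 9.02 CPM, with overlapping groups.

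Neuronal lists had positive medians, mostly overlapping groups and a sign that depended on the libraries used. The medians were 0.31 over 8 striatal genes (Drd2, Tac1 and Ppp1r1b with the smallest p), 0.70 over 8 cortical excitatory genes (Rorb, Neurod2 and Cux2), 0.49 over 7 interneuron genes (Prox1, Sst and Calb2) and 0.70 over 5 basal forebrain cholinergic genes (Chat and Slc18a3 among those with the smallest p). With single libraries left out the striatal median lay between -0.19 (without WT 1) and 1.65 (without WT 2), the cortical between -0.80 (without KO 1) and 2.25 (without WT 3), the interneuron between -0.31 (without KO 1) and 0.66 (without WT 3), and the cholinergic between 0.31 and 1.04. The cholinergic median turned negative, to -0.54, with KO 1 alone against WT. DESeq2 called 0 genes of these 4 lists, and at an unadjusted p under 0.05 edgeR had 1 lower (Prox1) and 1 higher (Sst), both interneuron genes. Astrocyte and quiescent stem cell genes had a median of 0.26 over 10 genes, and DESeq2 called 0 (1 lower and 2 higher at an unadjusted p under 0.05 in edgeR). Among them Sox9 averaged 41.5 ± 1.73 CPM in KO-labelled libraries and 57.1 ± 10.6 CPM in WT libraries, while Aldh1l1 and Fgfr3 averaged 76.8 ± 11.4 and 107 ± 4.56 CPM in KO-labelled libraries and 56 ± 7.09 and 84.1 ± 10.1 CPM in WT libraries. The 11 endothelial genes had a median of 0.22 (0.03 without KO 2), and DESeq2 called 1 lower, Kdr, the VEGF receptor gene, at 10.6 ± 1.65 and 19.5 ± 5.06 CPM in KO-labelled and WT libraries, a call kept in 1 of 6 fits with a library left out. At an unadjusted p under 0.05 edgeR had 2 lower and 1 higher. Slco1a4 averaged 35 ± 1.63 and 46.9 ± 7.28 CPM and Ly6c1 50.7 ± 6.98 and 39.3 ± 5.5 CPM in KO-labelled and WT libraries.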
